A study of Arabidopsis thaliana with 11 samples.

Results

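The genes described here encode UGTs, glycosyltransferases of plants, which move a sugar from a UDP-sugar onto a small acceptor molecule. The members were all probe sets that the platform annotation assigns to exactly 1 gene whose symbol begins with UGT and a digit, leaving out UGT78D1 and UGT78D2, whose products glycosylate flavonols. This rule, which uses no signal, found 45 probe sets for 45 genes among 13513 plant probe sets with 1 gene (22746 plant probe sets in all). The TAIR10.1 gene table lists 64 genes with such a symbol or synonym, so the 45 are a part of the genes with that name. The digits after UGT give a group number based on protein sequence, and the members carry 11 such numbers: 9 members are in group 71, 8 in 76, 7 in 73, 5 each in 84 and 85, 4 in 72, 3 in 74, and 1 each in 78, 80, 87 and 88.

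Total RNA from whole plants of Arabidopsis thaliana, ecotype C24, at developmental stage 1.02 was hybridised to Affymetrix ATH1 arrays, 1 biotin-labelled sample per array. All plants were grown on agar with Murashige and Skoog salts in a growth chamber, and no other treatment or allele is labelled. The 11 arrays comprised 2 diploids (2 chromosome sets), 3 triploids coded TFE, 3 triploids coded TME (3 sets each) and 3 tetraploids (4 sets). Both triploid codes have the same source label, a cross between a tetraploid and a diploid, and the codes are not spelled out in the labels. The numbers in the array titles follow the groups, and the labels do not say whether they give the order of processing. If they do, an effect of that order and one of group cannot be told apart. Whether replicates were sown separately is not labelled, and p-values thus cover only the spread between these samples, part of which may be technical.

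Glycosylation changes how soluble, stable and mobile a small molecule is, and in plants it is a common last step for hormones, defence compounds and lignin precursors. A glucosylated hormone is usually an inactive or storage form. UGT genes often lie side by side on the chromosome as products of local duplication, and members with similar sequence can accept different molecules.

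The values were MAS5 signals, a linear measure of brightness per probe set, which the authors had scaled so that every array had the same trimmed mean. All differences are therefore relative to the rest of the array, and more RNA per cell cannot be seen in them. In whole plants, a different share of the cells that use a gene and a different amount of its RNA per cell cannot be told apart. Different probe sets bind with different strength, so signals are compared between arrays for 1 gene, never between genes. Of the leaf markers, RCA (Rubisco activase) had 4236 to 6785 units over the 11 arrays, PSAN and LHCB4.3, of the photosystems and their antenna, had 1983 to 2959 and 296 to 576 units, and the root hair marker EXPA7 had 7.79 to 55.1 units. The lists of seed and flower markers had 0 named probe sets. The array coded TFE replicate 3 stood apart from the rest. Its rank correlation with the others was 0.861 to 0.88, against 0.942 to 0.973 among the other 10, and 40% of its plant signals lay below 37.6 units, against 26.3 to 29.3 units on the others. Medians and counts at an unadjusted p are given for the members with and without it. So are the values of single members that it moved by more than 1.5 times or that lean on it. Values of genes outside the members, the markers among them, are given with it only.

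A probe set was tested if it lay above its array's percentile 40 on at least 2 arrays. This kept 24 of the 45 UGT probe sets (15075, or 66.3%, of all plant probe sets). Signals of these 24 ran from 3.62 to 611 units, and 17 lay above percentile 40 on all 11 arrays. The other 21 ran from 0.375 to 48.6 units. Of these, 20 lay above percentile 40 on no array, so they were dim in every ploidy rather than dim in some of them. The exception, UGT85A3, passed on 1 array, TFE replicate 3. At the edge of the filter, UGT85A7 passed on 2 arrays and UGT71C3 and UGT85A5 on 3 each. UGT85A5 passed on TME replicates 1 and 3 and tetraploid replicate 2, but on no diploid or TFE array. UGT76B1 passed on 5 arrays, none of them TFE. UGT85A7 passed only on diploid replicate 1 and TME replicate 2. UGT71C3 passed only on replicate 3 of the TFE triploids, TME triploids and tetraploids. UGT71C3, UGT76B1, UGT85A5 and UGT85A7 were thus tested through arrays where they were high. Their differences from groups that never passed are described only, though they enter the counts and medians below.

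**Figure D1:**
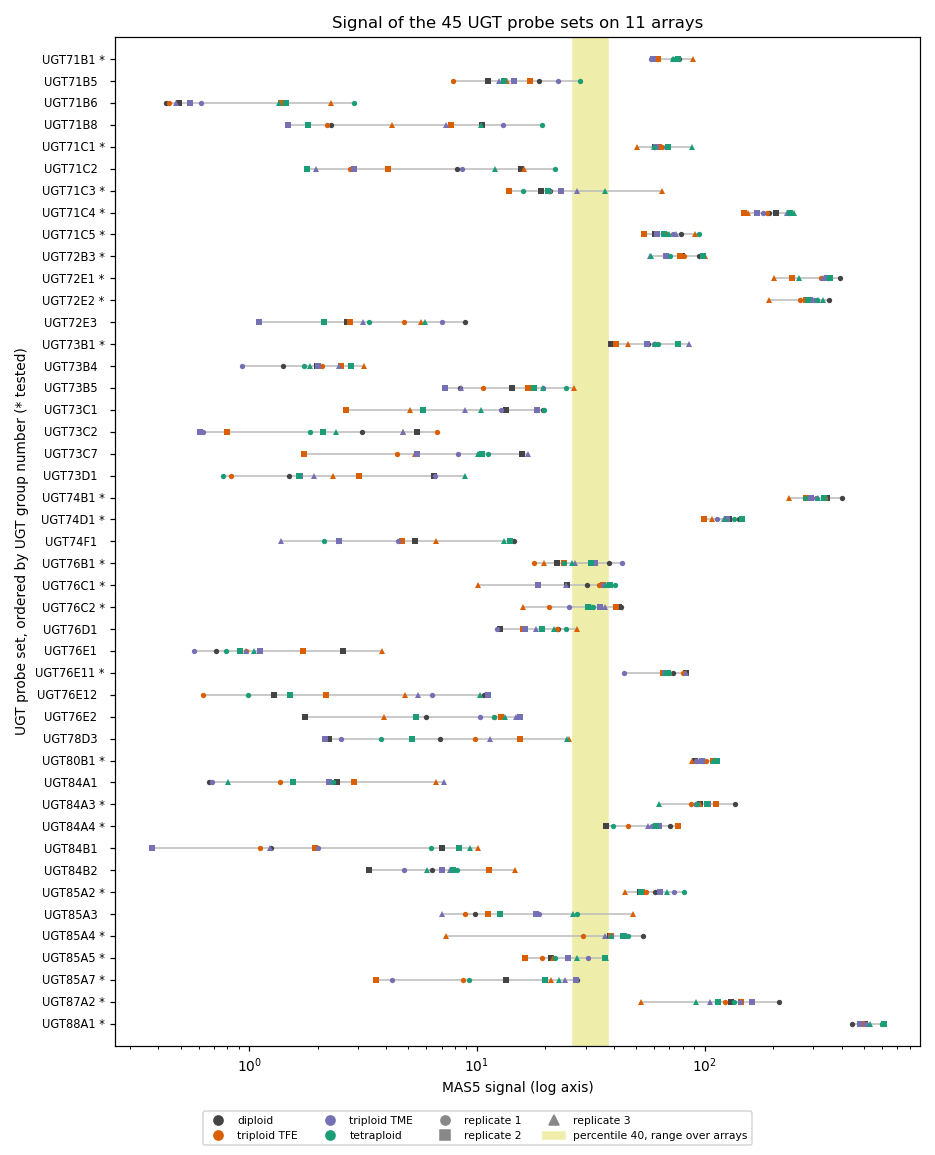
Signals of all 45 UGT probe sets (rows, ordered by group number, asterisks marking the 24 tested) on the 11 arrays, on a log axis in MAS5 units. Colours give the ploidy group, symbols the replicate, and the shaded band the range over arrays of percentile 40. Most of the 21 untested probe sets lie wholly left of the band, and within a row the 4 colours are intermixed for most genes.

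No UGT probe set passed the threshold (Benjamini-Hochberg adjusted p under 0.05, limma over all 15075 probe sets) in any of the 6 pairwise comparisons or in the slope of log2 signal over the number of chromosome sets. The share of all tested probe sets that passed was also low. It was 0.829% for tetraploids against diploids, 0.126% for TME triploids against diploids, 0% for TFE triploids against diploids, 0.0265% for TFE against TME triploids, 0.471% for tetraploids against TFE triploids, 0% for tetraploids against TME triploids and 0.425% for the slope. With 24 members, a count of 0 is what shares of this size would give, and it does not show that the UGTs were unaffected. The 95% interval of the difference lay inside a 2-fold change either way (1 log2 unit) for 16 of the 24 members in tetraploids against diploids, 16 in TFE and 15 in TME triploids against diploids. Across all tested probe sets these shares were 74.5%, 72.3% and 77.1%. For the slope, 23 of 24 intervals lay within 1 log2 unit per chromosome set, the exception being UGT85A7.

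**Figure D2:**
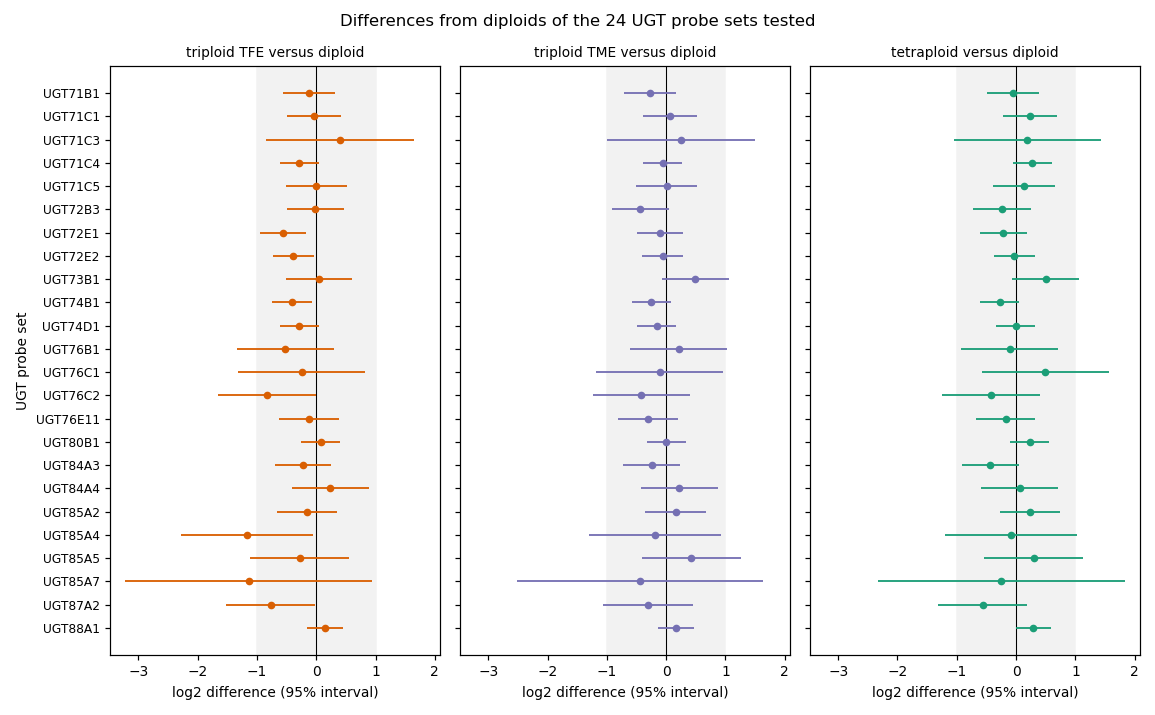
Log2 differences from diploids (points) with 95% intervals (lines) for the 24 tested UGT probe sets, in TFE triploids, TME triploids and tetraploids from left to right, with a 2-fold change either way shaded. The 3 panels share the same 2 diploid arrays. In the TFE panel 18 of 24 points lie left of 0, against 14 in the TME panel and 13 in the tetraploid panel.

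In tetraploids against diploids, 11 of the 24 members were higher and 13 lower in the mean, with a median log2 difference of -0.018, against 0.0069 over all tested probe sets. None had an unadjusted p under 0.05, against 8.42% of all tested probe sets. Leaving out TFE replicate 3, which enters the shared spread, kept the median, but UGT87A2 and UGT88A1 then had one, against 13.2% of all probe sets. The arrays of the 2 groups did not overlap for 8 members, against a background of 29.7%. Of these 8, UGT71C4, UGT73B1, UGT76C1, UGT80B1 and UGT88A1 were higher and UGT74B1, UGT76C2 and UGT76E11 lower. Without diploid replicate 1, the balance turned: 15 of 23 members were higher, with a median of 0.194, against 49.7% higher over all probe sets. That diploid array had the highest signal of the 11 for 8 of the 24 members (33.3%, against 8.08% of all tested probe sets).

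TFE triploids against diploids gave 6 members higher and 18 lower, with a median of -0.23 against 0.0026 over all tested probe sets, of which 49.6% were lower. The unadjusted p was under 0.05 for 6 members, against 9.08% of all tested probe sets, and all 6 were lower (background for lower, 4.58%). They were UGT72E1, UGT72E2, UGT74B1, UGT76C2, UGT85A4 and UGT87A2, with adjusted p-values of 0.459 to 0.547. The arrays did not overlap for 6 members, against a background of 22.6%, again all lower (background 10.7%): UGT71C4, UGT72E1, UGT72E2, UGT74B1, UGT74D1 and UGT76C2. Without TFE replicate 3, the counts were the same, 6 higher and 18 lower with a median of -0.23, but only UGT72E1 had an unadjusted p under 0.05, against 7.28% of all probe sets tested in that fit. Without diploid replicate 1, 8 were higher and 15 lower with a median of -0.12, against 51% lower over all probe sets. None then had an unadjusted p under 0.05, against 4.3% of all. The level of the hybridisation controls, which are RNAs added to every sample, was 372 to 627 units on the TFE arrays, against 157 and 321 units on the diploid arrays. With that level as a covariate the median difference was 0.0045. The levels of the 2 groups did not overlap, so that fit can hardly separate hybridisation from group. Over all tested probe sets, 282 had an unadjusted p under 0.05 in it, against 1369 without the covariate. The same limit holds for the covariate values of single genes between TFE triploids and diploids below.

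In TME triploids against diploids, 10 members were higher and 14 lower, with a median of -0.085 (-0.0032 over all tested probe sets). None had an unadjusted p under 0.05, against a background of 4.5%. Leaving out TFE replicate 3 kept the median, and 1 member, UGT72B3, then had one, against 7.54% of all probe sets. The arrays did not overlap for 6 members (background 24%), of which UGT85A5 was higher and UGT71B1, UGT72B3, UGT74B1, UGT74D1 and UGT76C2 lower. UGT85A5 passed the filter on no diploid array, so its count here is no support for a difference. Without diploid replicate 1 the median was 0.048, with 15 of 23 members higher, against 48.2% of all probe sets.

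Between the triploids, which share the number of chromosome sets, 7 members were higher and 17 lower in TFE than in TME, with a median of -0.15 (0.00081 over all tested probe sets). UGT72E1, UGT72E2 and UGT76B1 had an unadjusted p under 0.05, all lower in TFE, against 10.6% of all tested probe sets (5.76% lower). The arrays did not overlap for 5 members (background 14.1%), 4 of them lower in TFE (background 6.82%): UGT72E1, UGT72E2, UGT76B1 and UGT85A5. UGT72B3 was the 1 that was higher. Without TFE replicate 3 the counts were again 7 higher and 17 lower, with a median of -0.12. UGT72E1, UGT72E2 and UGT76B1 then no longer had an unadjusted p under 0.05 (adjusted p = 0.708, 0.822 and 0.674), and UGT85A5 alone did (adjusted p = 0.663), against 7.42% of all tested probe sets. UGT85A5 and UGT76B1 passed the filter on no TFE array, so their counts here are no support for a difference.

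Tetraploids against TFE triploids gave 19 members higher and 5 lower, with a median of 0.28 (0.0021 over all tested probe sets). UGT71C4, UGT72E2 and UGT85A4 had an unadjusted p under 0.05, all higher, against a background of 13.5% (7.49% higher). The arrays did not overlap for 7 members, all higher in tetraploids, against a background of 16.6% (8.5% higher). They were UGT71C4, UGT72E2, UGT73B1, UGT76B1, UGT76C1, UGT85A4 and UGT85A5. Of these, UGT76B1 and UGT85A5 passed the filter on no TFE array, so their counts here are no support for a difference. The 1 named root marker, EXPA7, averaged 45.8 units in tetraploids and 23.2 units in TFE triploids (difference 1.2 ± 0.46, adjusted p = 0.292). All 3 named leaf markers were lower in tetraploids in the mean, among them RCA by -0.35 ± 0.14 (adjusted p = 0.302). The part of these markers' organs in the UGT values was not tested. Without TFE replicate 3 the median was 0.185, and 1 member had an unadjusted p under 0.05, against 11.3% of all probe sets. This comparison and the previous one use the TFE arrays that also enter the comparison with diploids, so the 3 sets of counts are not independent.

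Tetraploids against TME triploids gave 15 members higher and 9 lower, with a median of 0.097 (0.0090 over all tested probe sets). UGT71C4 alone had an unadjusted p under 0.05 (background 4.62%), and 3 members did not overlap, all higher: UGT71C4, UGT76C1 and UGT80B1 (background 14.6%). Leaving out TFE replicate 3 kept the median, and UGT71C4 and UGT76C1 then had an unadjusted p under 0.05, against 8.6% of all probe sets. Over the number of chromosome sets, 14 slopes were above 0 and 10 below, and 1 member, UGT88A1, had an unadjusted p under 0.05 against a background of 8.28%. Without TFE replicate 3, 12 slopes lay on each side of 0 and 3 members had an unadjusted p under 0.05, against 13.1% of all probe sets. They were UGT84A3 and UGT87A2, with slopes below 0, and UGT88A1, with a slope above 0.

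By array, the median deviation of the 24 members from their own means was 0.17 and -0.027 (log2) on the diploid arrays, -0.061, -0.13 and -0.26 on TFE, 0.011, 0.0083 and 0.080 on TME, and 0.092, 0.15 and 0.071 on the tetraploid arrays. The 3 TFE arrays were the lowest of the 11, and the first diploid array was the highest. TFE replicate 3 held the lowest of the 11 signals for 10 of the 24 members (41.7%, against 27.3% of all tested probe sets), and TFE replicate 2 for 6 (25%, against 8.18%). Among the 21 untested members TFE replicate 3 was instead the highest for 8 (38.1%), against 48.8% of all untested plant probe sets. The ratio of 3′ to 5′ actin probe sets, a measure of RNA integrity, moved with the groups. It was 0.506 and 0.524 in diploids, 0.559, 0.581 and 0.92 in TFE triploids, 0.539, 0.466 and 0.407 in TME triploids, and 0.403, 0.344 and 0.308 in tetraploids. The 3 TFE arrays had the 3 highest ratios and the 3 tetraploid arrays the 3 lowest, while the UGT median was lowest in TFE. The part of RNA integrity in the UGT values was not tested.

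**Figure D3:**
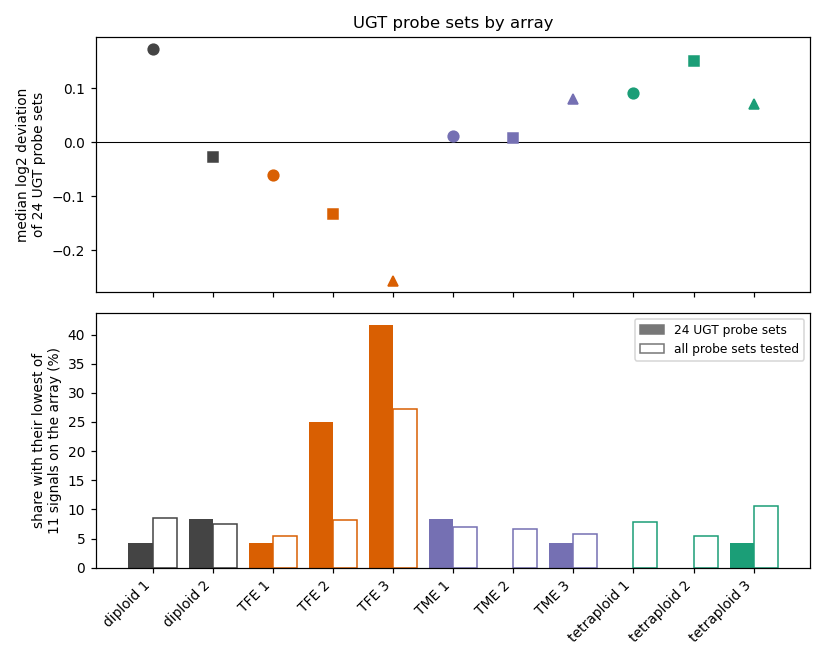
Upper panel: median over the 24 tested UGT probe sets of the log2 deviation from each probe set's mean, for each of the 11 arrays. Lower panel: share of the 24 UGT probe sets (filled bars) and of all tested probe sets (open bars) whose lowest signal of the 11 lies on that array, in percent. The 3 TFE arrays lie lowest in the upper panel, and TFE replicate 3 holds the lowest signal for 41.7% of the UGT probe sets.

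UGT74B1 (AT1G24100) performs the glucosylation step in the making of the glucosinolate core, a class of sulphur-containing defence compounds. Its signals were 401 and 345 units in diploids, 336, 279 and 235 units in TFE triploids, 309, 294 and 339 units in TME triploids, and 275, 335 and 315 units in tetraploids. Both diploid arrays lay above all 9 arrays of the other groups. The log2 difference from diploids was -0.41 ± 0.15 (SE) in TFE triploids (adjusted p = 0.487), -0.25 ± 0.15 in TME triploids (adjusted p = 0.999) and -0.27 ± 0.15 in tetraploids (adjusted p = 0.696). All 3 values rest on the same 2 diploid arrays, and none passed the test. Without diploid replicate 1 they were -0.30, -0.14 and -0.17, and with the hybridisation control covariate -0.073, -0.093 and -0.23.

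UGT72E1 and UGT72E2 glucosylate lignin precursors, the monolignols and their aldehydes. UGT72E1 (AT3G50740) had 323, 241 and 202 units in TFE triploids, against 393 and 346 units in diploids and 349, 345 and 330 units in TME triploids. Its tetraploid signals were 349, 354 and 260 units, so the TFE arrays lay below all diploid and TME arrays and overlapped the tetraploid ones. The difference of TFE triploids from diploids was -0.56 ± 0.18 (95% interval -0.94 to -0.17, adjusted p = 0.459), and without TFE replicate 3 it was -0.40 ± 0.17 (adjusted p = 0.627). From TME triploids it was -0.45 ± 0.16 (adjusted p = 0.417), and -0.29 ± 0.15 without that array (adjusted p = 0.708). With the hybridisation control level as a covariate the 2 differences were -0.15 and -0.23.

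UGT72E2 (AT5G66690), on another chromosome, had 263, 279 and 192 units in TFE triploids, against 352 and 282 units in diploids. It had 302, 291 and 314 units in TME triploids and 312, 283 and 331 units in tetraploids. The 3 TFE signals lay below those of every other array, narrowly for TFE replicate 2. The difference from diploids was -0.38 ± 0.16 (adjusted p = 0.520) and it was -0.22 without TFE replicate 3, -0.23 without diploid replicate 1 and -0.11 with the hybridisation control covariate. Across the 11 arrays the log2 signals of UGT72E1 and UGT72E2 correlated with r = 0.685, and with r = 0.205 when TFE replicate 3 was left out, a description over arrays that share scaling and quality. UGT72E3, the third monolignol member, was not tested, with 1.11 to 8.89 units.

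UGT84A3 and UGT84A4 form glucose esters of hydroxycinnamic acids, and neither differed beyond the spread of its arrays. UGT84A3 ran from 63.3 to 136 units and differed by -0.43 ± 0.22 between tetraploids and diploids (adjusted p = 0.655). UGT84A4 ran from 37.0 to 76.3 units, with a difference of 0.059 ± 0.30 (adjusted p = 0.988). UGT84A1, their neighbour on chromosome 4 with the same kind of acceptor, had 0.669 to 7.20 units and was not tested.

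Among members that act on hormones, UGT74D1 (AT2G31750), which glucosylates auxin and its oxidised form, had 125, 99.1 and 107 units in TFE triploids, against 141 and 128 units in diploids. It had 114, 126 and 121 units in TME triploids and 134, 146 and 123 units in tetraploids. The difference was -0.29 ± 0.15 in TFE triploids (adjusted p = 0.572) and -0.16 ± 0.15 in TME triploids (adjusted p = 0.999), the second being -0.089 without diploid replicate 1 and -0.028 with the hybridisation control covariate. In tetraploids the 95% interval ran from -0.33 to 0.33. UGT84B1, which glucosylates auxin, had 0.375 to 10.1 units and was not tested.

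The cytokinin N-glucosyltransferases UGT76C1 (AT5G05870) and UGT76C2 (AT5G05860) lie next to each other on chromosome 5. UGT76C1 had 40.4, 38.5 and 36.9 units in tetraploids, against 30.3 and 24.8 units in diploids. It had 34.3, 35.9 and 10.1 units in TFE triploids and 35.8, 18.6 and 24.6 units in TME triploids. All 3 tetraploid signals lay above the other 8, but the difference from diploids, 0.49 ± 0.50 (adjusted p = 0.910), had an interval of -0.58 to 1.56, and the residual SD over all groups was 0.616 (log2). Without TFE replicate 3 it was 0.49 ± 0.30 (adjusted p = 0.526).

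UGT76C2 had 32.5, 30.8 and 32.1 units in tetraploids, against 42.9 and 42.1 units in diploids. Its triploid signals were 20.8, 40.8 and 16.0 units in TFE and 25.4, 34.7 and 36.6 units in TME. The neighbours therefore lay on opposite sides of the diploids in tetraploids, with -0.42 ± 0.39 for UGT76C2 (adjusted p = 0.885), and the difference between the 2 genes was not tested. TFE triploids gave -0.83 ± 0.39 (adjusted p = 0.547), and -0.55 without TFE replicate 3.

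UGT71C5, which glucosylates abscisic acid, ran from 54.0 to 94.3 units with overlap between all groups, and tetraploids differed from diploids by 0.14 ± 0.24 (adjusted p = 0.966). UGT71B6 and UGT71B8, which also act on abscisic acid, were not tested, with 0.431 to 2.88 and 1.48 to 19.4 units. UGT76B1 (AT3G11340), which conjugates the immune signals isoleucic acid and salicylic acid, had 17.8, 24.1 and 19.8 units in TFE triploids, against 43.3, 33.1 and 26.9 units in TME triploids. Diploids had 38.1 and 22.4 units and tetraploids 24.2, 31.6 and 26.1 units, so TFE overlapped the diploids only. The difference between TFE and TME triploids was -0.73 ± 0.34 (adjusted p = 0.473). All TFE signals of UGT76B1 lay below percentile 40 of their arrays (26.8, 28.6 and 37.6 units), and all TME signals above theirs. UGT74F1, a salicylic acid glucosyltransferase, had 1.38 to 14.6 units and was not tested.

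UGT80B1 (AT1G43620) glucosylates membrane sterols, and its signal varied least among the 24 members, with a residual SD of 0.0935 (log2), against a median of 0.263 over the members and 0.243 over all tested probe sets. It had 111, 113 and 108 units in tetraploids, against 98.1 and 90.5 units in diploids, and 91.9, 97.5 and 93.8 units in TME triploids. TFE triploids had 102, 109 and 88.2 units and overlapped both tetraploids and diploids. The difference was 0.23 ± 0.15 between tetraploids and diploids (adjusted p = 0.782) and 0.23 ± 0.14 between tetraploids and TME triploids (adjusted p = 0.999). A residual SD of 1.15 in UGT85A7 was the highest of the 24.

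The smallest adjusted p of any member in any comparison was that of UGT71C4 (AT1G07250) in tetraploids against TFE triploids. UGT71C4 had 235, 236 and 248 units in tetraploids, against 188, 149 and 155 units in TFE triploids. It had 181, 169 and 229 units in TME triploids and 192 and 206 units in diploids, so the 3 tetraploid signals lay above the other 8. Tetraploids differed from TFE triploids by 0.55 ± 0.14 (95% interval 0.26 to 0.85, adjusted p = 0.107), from TME triploids by 0.32 ± 0.14 (adjusted p = 0.999) and from diploids by 0.27 ± 0.15 (adjusted p = 0.705).

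UGT88A1 (AT3G16520) had 443 and 507 units in diploids, 609, 493 and 485 units in TFE triploids, 510, 480 and 610 units in TME triploids, and 600, 611 and 531 units in tetraploids. The tetraploid signals lay above both diploid ones, and each triploid group spanned the gap. The slope was 0.14 ± 0.066 log2 units per chromosome set (adjusted p = 0.584), and the difference between tetraploids and diploids was 0.29 ± 0.14 (adjusted p = 0.613).

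UGT72B3 (AT1G01420), in the same numbered group as the monolignol members, had 81.4, 77.8 and 100 units in TFE triploids, against 68.5, 68.0 and 57.3 units in TME triploids. Diploids had 94.5 and 79.9 units and tetraploids 70.5, 98.1 and 58.0 units. TME lay below TFE and diploids without overlap, with a difference between TFE and TME of 0.42 ± 0.20 (adjusted p = 0.486) and between TME and diploids of -0.43 ± 0.23 (adjusted p = 0.999). Where UGT72E1 and UGT72E2 were lower in TFE than in TME, UGT72B3 was higher, and no test compared the 3 genes.

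**Figure D4:**
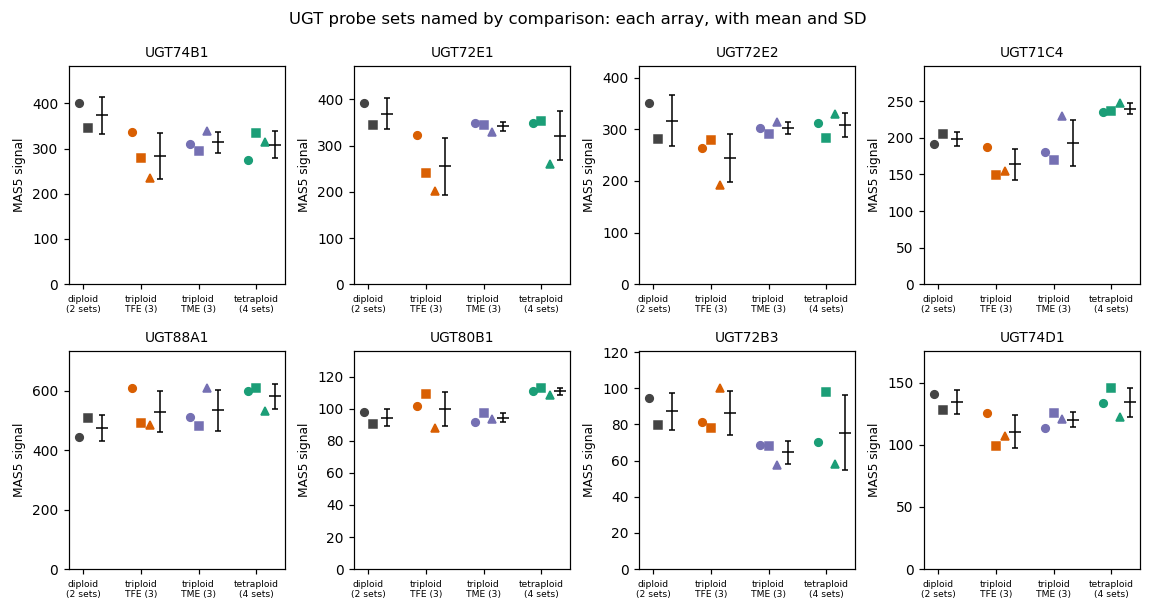
MAS5 signals on linear axes starting at 0 for 8 UGT probe sets, with each array as a point and the mean ± SD beside it (n = 2 diploid arrays and 3 arrays in each other group). UGT74B1 is highest on the 2 diploid arrays, UGT72E2 lowest on the 3 TFE arrays, and UGT71C4 highest on the 3 tetraploid arrays.

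The other tested members of groups 71, 73, 76, 85 and 87 had no adjusted p under 0.107 in any comparison. Some differences were carried largely by 1 array. UGT85A4 had 29.2, 38.7 and 7.33 units in TFE triploids, against 53.5 and 38.4 units in diploids, a difference of -1.16 ± 0.52 (adjusted p = 0.547) that was -0.43 without TFE replicate 3. UGT87A2 had 123, 144 and 52.5 units in TFE triploids, against 212 and 130 units in diploids, a difference of -0.77 ± 0.35 (adjusted p = 0.547) that was -0.32 without that array. UGT73B1, the only tested member of 7 in group 73, had 62.3, 76.3 and 60.7 units in tetraploids, against 56.6 and 38.7 units in diploids, a difference of 0.50 ± 0.26 (adjusted p = 0.667). UGT73B1, UGT85A4 and UGT87A2 were chosen after their values were seen. UGT76E11 ran from 44.3 to 82.9 units and UGT85A2 from 44.6 to 81.5 units.

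By group number, all 4 tested members of group 85 were lower in TFE triploids than in diploids (-1.16 to -0.15), as were all 3 of group 72 (-0.56 to -0.016), both of group 74 (-0.41 and -0.29) and all 4 of group 76 (-0.83 to -0.12). Groups 71 and 84 were split, with 2 of 5 and 1 of 2 higher (-0.28 to 0.40 and -0.22 to 0.24). The single tested members of groups 73, 80 and 88 were higher (0.051, 0.075 and 0.15) and that of 87 lower (-0.77). Without TFE replicate 3, groups 72, 74 and 85 were again all lower, but UGT76C1 of group 76 was higher (0.36). In group 71, UGT71C1 then turned higher (0.084), and UGT71C3 and UGT71C5 turned lower (-0.25 and -0.19). These are means that did not pass the test, and members on 1 array share its quality. UGT76B1, UGT85A5 and UGT85A7 passed the filter on no TFE array, and UGT71C3 on no diploid array. They entered the test through other groups where they were high. Their part in the directions of groups 71, 76 and 85 is therefore no support for a difference.

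On the chromosomes, 14 pairs of the 45 genes are direct neighbours. UGT85A7, UGT85A2, UGT85A5 and UGT85A3 lie in a row on chromosome 1, where UGT85A3 was the untested one. UGT84A1, UGT84A3 and UGT84A4 on chromosome 4 are another such row, with UGT84A1 the untested one. Which probe sets passed the filter depends on how strongly each binds, so this gives no order of expression between neighbours. Between tested members lying at most 3 genes apart, the log2 signals over the 11 arrays correlated with a median r of 0.274 (8 pairs). The median was 0.241 for 27 pairs within a group number and 0.129 for 249 pairs across group numbers. Without TFE replicate 3, these medians were 0.215 for neighbours, 0.205 within and 0.141 across group numbers. They are descriptions over arrays that share scaling and quality.

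Genes upstream or downstream of these acceptors were looked up in 8 lists of 191 genes for hormone, glucosinolate, phenylpropanoid and detoxification pathways. The platform annotation named 23 of them and 17 were tested. None passed the test in any of the 7 comparisons, and 1 to 3 of the 17 had an unadjusted p under 0.05 in each, against 4.5% to 13.5% of all tested probe sets. BCAT4, an early enzyme of methionine-derived glucosinolates, differed by -0.13 ± 0.13 between tetraploids and diploids (adjusted p = 0.903). HCT, an enzyme of monolignol synthesis, differed by 0.15 ± 0.11 between TFE triploids and diploids (adjusted p = 0.641). ALDH2C4, the other tested gene of the phenylpropanoid list, differed by -0.11 ± 0.14 there (adjusted p = 0.788). The mean of UGT72E1 was lower in the same comparison. Of the 14 named glutathione S-transferases, which detoxify by adding glutathione rather than sugar, 10 were tested, and GSTU27 had -0.34 ± 0.10 between tetraploids and diploids (adjusted p = 0.246). Of 5 named genes of the auxin list, all of the GH3 family, known for conjugating auxin to amino acids, 4 were tested. Between TFE triploids and diploids 2 of the 4 were higher, WES1 (0.43 ± 0.21, adjusted p = 0.551) and GH3.9 (0.50 ± 0.51, adjusted p = 0.748). GH3.17 (-0.28 ± 0.17, adjusted p = 0.616) and GH3.3 (-1.12 ± 0.66, adjusted p = 0.599) were lower. The salicylate list had 1 named gene, BSMT1, which was not tested. The cytokinin, brassinosteroid and abscisic acid lists had 0 named probe sets.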

How the data were processed

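The deposited values were linear intensity values, 1 per probe set and array, from MAS5, per the submitters' processing notes (no version is named). Trimmed by 2% at either end, every array averaged 100.01 units, so arrays had been scaled to a common level. The 64 control probe sets of 22810 were removed. Plant signals below 2.279 (percentile 10 of all plant values) were set to that floor before taking log2. The probe sets above percentile 40 of their array on 2 or more arrays entered a limma fit (limma 3.58.1, R 4.3.3) of the group means, with an intensity trend in the moderated variances and all 11 arrays in the fit. A call is a 2-sided Benjamini-Hochberg adjusted p under 0.05, taken across all 15075 of them, and intervals are 95%. The slope took the number of chromosome sets as a covariate. Precision is limited by the number of arrays. Scanner files and detection calls were not used here.

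Genes were named by the platform annotation and matched to the TAIR10.1 table (503 plant probe sets had several genes and 8730 no name). Named here are, per comparison, the 3 largest differences among members whose arrays did not overlap and whose brighter group mean exceeded the median of all probe sets kept (85.32 units), members with a known acceptor, and exceptions stated in the text. The members and gene lists were chosen with earlier results of these data known. The fit was tested on simulated data. Alternatives changed the normalization, filter, floor, variance model, array weights, covariates and arrays used.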

Additional observations from a re-analysis of the deposited data

How the results depend on the processing

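No UGT probe set was called in any comparison under any of the 21 alternatives (20 for the slope), the smallest adjusted p being 0.0516, in tetraploids against TFE triploids without TFE replicate 1. The UGT median (log2) moved by more than 0.081, the spread between arrays, in these cases. With the hybridisation control covariate it was 0.0045 for TFE and 0.067 for TME triploids against diploids, 0.020 for TFE against TME triploids, and 0.046 and -0.0037 for tetraploids against TFE and TME triploids. With no filter it was -0.15 for TFE triploids against diploids and -0.012 against TME triploids. With the stricter filter (above percentile 50 on at least 3 arrays) it was -0.14 for TFE triploids against diploids and 0.18 for tetraploids against TFE triploids. Leaving out 1 array at a time gave -0.080 to 0.194 for tetraploids against diploids, -0.31 to -0.12 for TFE and -0.22 to 0.048 for TME triploids against diploids, -0.30 to -0.12 between the triploids, and 0.185 to 0.33 and -0.0052 to 0.11 for tetraploids against TFE and TME triploids. The cause was not tested. With the replicate block, 0 UGTs were called and medians were 0.0091, -0.20 and -0.041 for tetraploids, TFE and TME triploids against diploids. Counts over all probe sets then were 103, 0 and 11. Deviations of same-numbered arrays correlated with r from -0.19 to 0.14, and 3 of 11 arrays correlated best with their own number. Of 15 pairs, 3 were above 0.1, all of them TME triploids with tetraploids (0.103, 0.121 and 0.14). Different-numbered pairs of these 2 groups had -0.133 to 0.0267. The 2 diploid arrays deviate from their mean in mirror image, so their pairs have opposite signs in any case. Whether replicates were paired is not settled by these values. Over all alternatives, calls among all probe sets ranged from 29 to 271 for tetraploids, 0 to 6 for TFE and 1 to 89 for TME triploids against diploids, 0 to 7 between triploids, 0 to 127 and 0 to 4 for tetraploids against TFE and TME triploids, and 6 to 230 for the slope. The 2 diploid arrays limit every comparison with diploids.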

Other observations

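Probe sets left out of the members because they match several genes, or belong to the flavonol pair, include other UGTs. The probe set shared by UGT73B2 and UGT73B3 ran from 6.55 to 91.8 units and was lower in TFE than in TME triploids by -1.52 ± 0.61 (log2, SE, adjusted p = 0.438). It was higher in tetraploids than in TFE triploids by 1.37 ± 0.61 (adjusted p = 0.346). The probe set shared by UGT89B1 and AT1G73885 differed by -0.65 ± 0.42 between TFE and TME triploids (adjusted p = 0.570). UGT78D2 differed by -0.45 ± 0.18 between TFE triploids and diploids (adjusted p = 0.508). None of these passed the test in any comparison, and their values without TFE replicate 3 are not given here.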
